A study of Homo sapiens with 4 samples.

Results

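Processed pseudogenes were compared with the mRNAs they were copied from in RNA immunoprecipitation sequencing (RIP-seq) of FLAG-tagged ORC1. The members were chosen by biotype and read number, as the genes that GENCODE v44 calls processed pseudogene or transcribed processed pseudogene and whose reads summed to 200 or more over the 4 libraries. Of the 63677 genes in the counts table, 10180 had one of these biotypes, 4378 of those had at least 1 read, and 51 reached the minimum. The parent was the protein-coding gene whose symbol remains when the final P and its number are removed, as NPM1 for NPM1P27. A parent was named in this way for 38 members, with 34 distinct parents, and for 13 members the symbol named none.

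HCT116 cells, a line from a human colorectal carcinoma, had carried pcDNA3.1-ORC1-3xFLAG, a plasmid for ORC1 with a FLAG tag, for 48 h. ORC1 belongs to the origin recognition complex, which marks the sites where DNA replication starts. RNA was sequenced from 2 anti-FLAG (M2) immunoprecipitates of nuclei that were not crosslinked (ORC1-FLAG IP) and from the 2 nuclear lysates they were taken from (Input), so both groups carried the plasmid. IP was set against Input to ask which RNAs were recovered with ORC1-FLAG beyond their share of nuclear RNA. The series holds no libraries of a control antibody or of untransfected cells, so these libraries do not separate RNA that adheres to beads or antibody. The paper describes the anti-FLAG sequencing as duplicate experiments. The labels do not say whether the replicates are separate cultures, so p-values measure only the spread between these libraries.

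A processed pseudogene is a copy of a spliced mRNA that was reverse transcribed by the LINE-1 machinery and inserted elsewhere in the genome. The copy has no introns and usually no promoter of its own. Its sequence starts as that of the parent mRNA and moves away from it as mutations gather with age. Where the 2 are still alike, short reads from an abundant parent can align to the copy. The counts do not say which of the 2 RNAs a read came from, and how reads that align in more than 1 place were handled is not given in the sources used here.

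The extent of that likeness differed between members. It is illustrated by 60-base stretches of the coding sequence in the members with the largest fold changes and in the family with the most copies. Each stretch was the one aligned without gaps that held the most mismatches, summed over the 3 copies for EEF1A1. The stretches are therefore not typical of the whole, and NPM1P27 had 98.2% identity to NPM1 over its aligned length. They were taken from GENCODE v44 transcripts on GRCh38, written 5′ to 3′ with T for U, and capitals mark the bases of the pseudogene that differ from the source mRNA. The copy of RPS28, a small-subunit ribosomal protein, lies at chr11:82689559-82689768 on the plus strand, in an intron of MIR4300HG on the opposite strand, and had 0 mismatches. That of RPL10, a large-subunit ribosomal protein, lies at chr9:117180628-117181095 on the minus strand and overlaps the small nucleolar RNA gene SNORA70C. That of NPM1, a nucleolar protein of ribosome assembly, lies at chr5:93682838-93683667 on the minus strand, in an intron of FAM172A. HSP90AA2P lies at chr11:27888838-27891033 on the minus strand outside other genes, and its best match was HSP90AA1, a cytosolic chaperone. The 3 copies of EEF1A1, the elongation factor that delivers tRNA to the ribosome, also lie outside other genes, EEF1A1P5 at chr9:133019486-133020874, EEF1A1P11 at chr1:96446930-96448318 and EEF1A1P16 at chr12:16990670-16992083, all on the plus strand.
RPS28: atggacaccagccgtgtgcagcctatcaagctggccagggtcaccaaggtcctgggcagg
RPS28P7: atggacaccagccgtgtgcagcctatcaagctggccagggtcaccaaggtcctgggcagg
RPL10: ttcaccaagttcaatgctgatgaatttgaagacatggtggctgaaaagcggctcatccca
RPL10P3: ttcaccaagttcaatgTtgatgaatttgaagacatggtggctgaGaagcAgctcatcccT
NPM1: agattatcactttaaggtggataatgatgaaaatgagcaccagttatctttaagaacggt
NPM1P27: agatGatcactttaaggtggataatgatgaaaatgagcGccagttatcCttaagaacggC
HSP90AA1: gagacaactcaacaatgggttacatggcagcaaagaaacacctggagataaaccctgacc
HSP90AA2P: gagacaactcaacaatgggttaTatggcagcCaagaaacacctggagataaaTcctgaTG
EEF1A1: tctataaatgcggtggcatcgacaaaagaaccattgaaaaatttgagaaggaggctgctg
EEF1A1P5: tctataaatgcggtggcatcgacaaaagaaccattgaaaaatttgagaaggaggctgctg
EEF1A1P11: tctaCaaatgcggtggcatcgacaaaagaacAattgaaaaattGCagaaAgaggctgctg
EEF1A1P16: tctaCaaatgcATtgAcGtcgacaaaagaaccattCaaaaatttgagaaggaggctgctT

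In these stretches EEF1A1P5 had 0 mismatches to EEF1A1, RPL10P3 and NPM1P27 had 4 each to their parents, HSP90AA2P and EEF1A1P11 had 5 each, and EEF1A1P16 had 7. Over the aligned length, identity to the named parent had a median of 96.5% over the 37 members whose parent could be tested. It ranged from 82.9% in RPL26P30 to 100% in RPS28P7, and TUBB8P1, whose parent could not be tested, had 79.05%. The symbol and the sequence named the same parent in 36 of the 38 members with a named parent. The exceptions were RPL26P30, whose best match was RPL26L1, and TUBB8P1, whose best match was TUBB4B. A stricter view came from windows of 50 bases that occur without a mismatch in a transcript of the parent. Over the same 37 members these made up a median of 19.2% of a pseudogene's windows, from 0% to 100%. For 43 of the 51 members the annotation held a single block of exons, as an intronless copy would. The copy of the sphingomyelinase gene SMPD4, SMPD4BP, had 15 exon blocks, and the best match of CENPBD2P, to RPL23A, covered only 6.23% of its transcript, so for these the annotated gene is more than 1 uninterrupted copy of an mRNA.

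Libraries held 27483148 (IP replicate 1), 20280445 (IP replicate 2), 14677002 (Input replicate 1) and 9213877 (Input replicate 2) counts, and levels are given as CPM, which are counts relative to a library size scaled with edgeR's TMM method. Members were sparse, with a median of 384 reads over the 4 libraries, and 32 of the 51 had fewer than 500. Their summed share of a library was 0.0563% and 0.0557% in the IP and 0.0732% and 0.0650% in the Input. PTMAP5 alone held 37.5% of the reads of all members. The 5 epithelial markers lay between 46.8 and 2055 CPM, and of 7 markers of other cell types CD3E and PECAM1 were at 0 in every library. The summed level of these 7 was 21.9 and 27.1 CPM in the IP and 7.90 and 11.2 CPM in the Input libraries, nearly all of it COL1A1, and its part in the results was not tested. ORC1 itself was 15.2-fold (Input) and 16.7-fold (IP) higher in replicate 2 than in replicate 1, and the part of this difference in the results was not tested.

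The minimum of 200 reads chose the members, and because the IP libraries held 66.7% of all reads it admits a gene that is high in the IP more readily than one that is high in the Input. NOP56P3 (92 and 67 reads in the IP, 23 and 18 in the Input), RANBP1P1 (102 and 33, 51 and 14) and ENSG00000241352 (106 and 31, 57 and 16) lay just inside it. PCBP2P2 (97 and 56, 26 and 13), NAMPTP1 (49 and 56, 42 and 46) and EEF1A1P13 (78 and 43, 44 and 29) lay just outside. The 265 processed pseudogenes below the minimum that could be tested had a median log2 fold change of -0.26. Of these 3 were enriched and 25 depleted, where the shares of all tested genes were 10.5% and 8.3%. Counts and medians over the members are therefore a description of these 51 genes.

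Processed pseudogenes were found on both sides of the comparison. The copies with the largest enrichment in the IP were HSP90AA2P, NPM1P27, SUPT16HP1 and HSP90AB3P, which match mRNAs of chaperones, a nucleolar protein and a histone chaperone, and those with the largest depletion were RPL10P3, RPS28P7 and RPS2P46, which match ribosomal protein mRNAs. With edgeR's quasi-likelihood test over all 14645 genes, 12 of the 51 members were called enriched (adjusted p below 0.05 and log2 fold change above 1), 6 were called depleted by the mirrored rule and 33 were not called. Over all tested genes 10.5% were enriched and 8.3% depleted. The median log2 fold change was 0.54 over the members, from -2.16 to 2.75, against 0.01 over all tested genes. Both IP libraries lay above both Inputs in 25 members (33.2% of all tested genes did so), both lay below in 12 (31.9% of all genes), and the groups overlapped in 14. The number enriched fell to 3 without IP replicate 1 and to 7 without Input replicate 2, and scaling by library size alone, which moves the median of all genes by -0.60, gave 4 enriched and 10 depleted members, where 380 and 3257 of the 14645 genes were so called. The 3 that stayed enriched without IP replicate 1 were HSP90AA2P, NPM1P27 and HSP90AB3P.

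**Figure D1:**
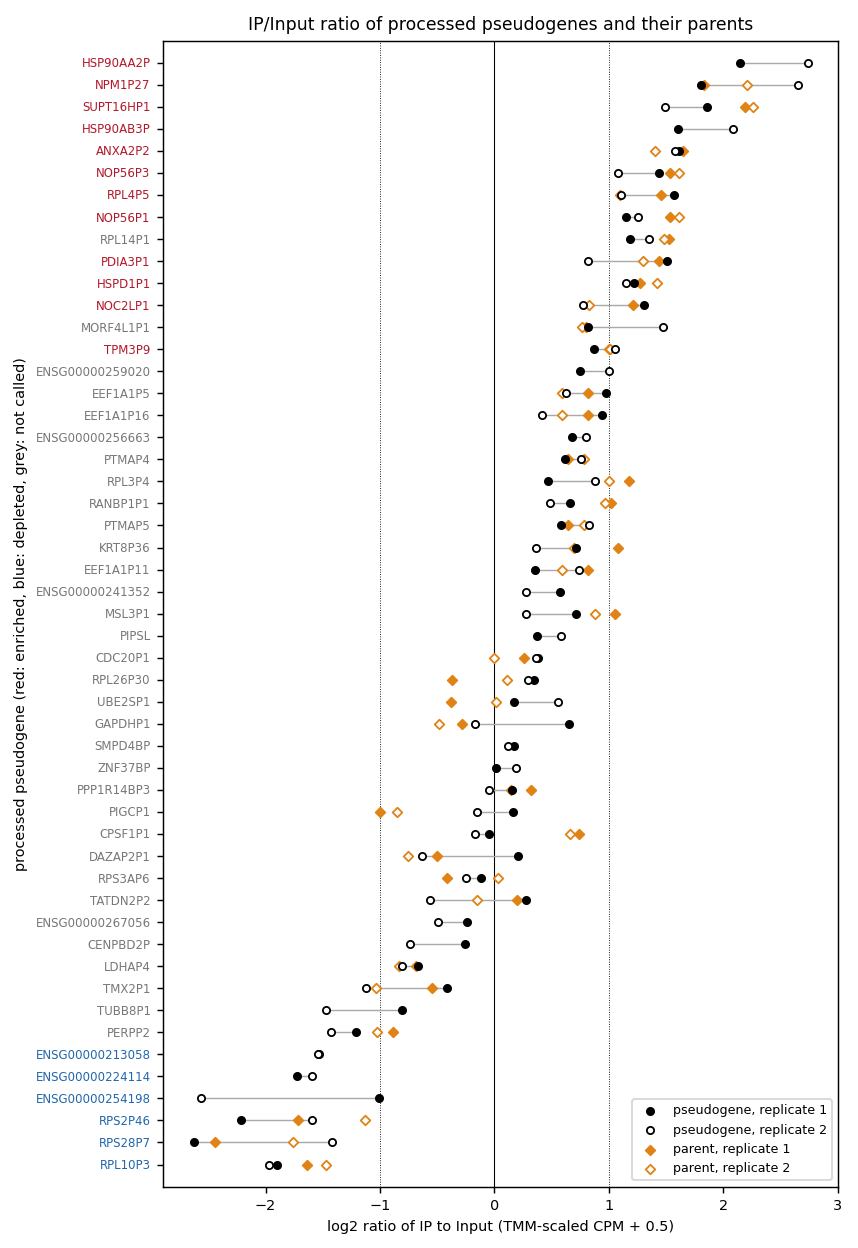
Log2 ratio of IP to Input (TMM-scaled CPM with 0.5 added) in replicates 1 and 2 for each of the 51 processed pseudogenes (circles) and, where the symbol named a tested one, its parent (diamonds), ordered by edgeR log2 fold change with label colour giving the call. The circles run from the ribosomal protein copies RPL10P3 and RPS28P7 at the left to HSP90AA2P at the right, and the diamonds follow them along the order.

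By family of the parent, cytosolic ribosomal proteins had the most members (8), and the calls among them went both ways. The only members whose parents were on the lists of nuclear RNA-binding proteins (NPM1P27) and chaperones (HSPD1P1) were both enriched. Of the 3 copies of translation factors, the 2 each of chromatin, glycolysis and cytoskeleton proteins and the 1 of the ubiquitin system, none was called. The 18 members with other parents included 7 enriched and 0 depleted, and the 13 without a named parent 2 enriched and 3 depleted. Shares over all tested genes were 10.5% enriched and 8.3% depleted, and differences between families were not tested.

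HSP90AA2P had the largest log2 fold change of the members. It stood at 9.32 and 7.40 CPM in the IP and 1.72 and 0.685 CPM in the Input, a log2 fold change of 2.75 ± 0.47 (SE, n = 2 against 2, edgeR adjusted p = 0.0132). The second copy of an HSP90 chaperone mRNA, HSP90AB3P, stood at 16.7 and 12.1 CPM in the IP and 5.15 and 2.48 CPM in the Input (log2 fold change 1.89 ± 0.39, edgeR adjusted p = 0.0193). In both copies each IP library lay above each Input. The symbol rule named no parent for them, and by sequence they matched HSP90AA1 and HSP90AB1, each at 97.1% identity. Both mRNAs were enriched too, HSP90AA1 with a log2 fold change of 2.42 (22381 and 17558 CPM in the IP, 5201 and 2246 in the Input) and HSP90AB1 with 1.91. HSPD1P1, the copy of the mitochondrial chaperonin mRNA HSPD1, lies in an intron of CDH12 at chr5:21882585-21884310 and stood at 19.5 and 14.6 CPM in the IP and 8.08 and 6.33 CPM in the Input. Its log2 fold change was 1.24 ± 0.27 (edgeR adjusted p = 0.0232), beside 1.33 ± 0.33 for HSPD1. The call of HSPD1P1 was lost without IP replicate 1 (1.06, edgeR adjusted p = 0.0890), without Input replicate 2, where its log2 fold change was 0.93, and with library size alone (0.63).

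NPM1P27 was measured at 34.4 and 26.3 CPM in the IP against 9.51 and 3.77 CPM in the Input, with a log2 fold change of 2.17 ± 0.43 (edgeR adjusted p = 0.0174). NPM1 itself went from 1975 and 946 CPM in the Input to 7029 and 4363 CPM in the IP, 1.96 ± 0.46 on the log2 scale. All IP values of both genes were above all Input values. SUPT16HP1, at chr12:16399274-16402406 in an intron of MGST1, is the copy of a subunit of the histone chaperone FACT, and it stood at 8.55 and 6.43 CPM in the IP and 2.01 and 1.97 CPM in the Input (1.91 ± 0.34, edgeR adjusted p = 0.0143). SUPT16H showed 2.22 ± 0.34. The 2 copies of NOP56, the core protein of box C/D small nucleolar ribonucleoproteins, were both called, NOP56P3 at 1.53 ± 0.42 and NOP56P1 at 1.40 ± 0.41 (edgeR adjusted p of 0.0420 and 0.04997), beside 1.57 ± 0.29 for NOP56. The call of NOP56P3 was lost under 6 of the alternatives run and that of NOP56P1 under 8. NOC2LP1, the copy of a nucleolar protein mRNA, was enriched as well (1.19 ± 0.35, edgeR adjusted p = 0.0489), as was NOC2L (1.04 ± 0.28). The call of NOC2LP1 was lost with DESeq2, where its adjusted p was 0.0697. It was lost too without IP replicate 1, without Input replicate 2, and with upper-quartile or library-size scaling. SUPT16HP1 missed the threshold without IP replicate 1 (1.73, edgeR adjusted p = 0.0618).

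The remaining enriched members were copies of mRNAs with other roles. ANXA2P2, the copy of a calcium-dependent membrane-binding protein, stood at 6.63 and 5.06 CPM in the IP and 1.83 and 1.37 CPM in the Input (1.85 ± 0.39, edgeR adjusted p = 0.0204). PDIA3P1, the copy of a disulfide isomerase of the endoplasmic reticulum, stood at 8.07 and 6.88 CPM in the IP and 2.52 and 3.68 CPM in the Input (1.28 ± 0.34, edgeR adjusted p = 0.0368). Its annotation is more than the copy, since PDIA3 aligned to 49.2% of the transcript and another gene on the same strand shared 29.1% of the exon bases. The call of PDIA3P1 was lost without IP replicate 1 (1.20, edgeR adjusted p = 0.166), without Input replicate 1 (1.06, edgeR adjusted p = 0.0984) and with upper-quartile or library-size scaling, and that of ANXA2P2 without IP replicate 1 (1.69, edgeR adjusted p = 0.114) and with library size alone. TPM3P9, the copy of a tropomyosin mRNA that shares 1.54% of its exon bases with ZNF761, had the smallest fold change of those called (1.06 ± 0.30, edgeR adjusted p = 0.0458). TPM3 aligned to 37.2% of the transcript of TPM3P9, so its annotation too is more than the copy. DESeq2 did not call TPM3P9 (adjusted p = 0.0787). Its call was also lost without IP replicate 1, without Input replicate 2, and with upper-quartile or library-size scaling. Parents of these 3 had log2 fold changes of 1.53 ± 0.29 for ANXA2, 1.37 ± 0.26 for PDIA3 and 1.00 ± 0.37 for TPM3, of which TPM3 was not called.

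Ribosomal protein copies went in both directions. Of 8 with a named parent, 1 was enriched, 3 were depleted and 4 were not called, with a median log2 fold change of 0.08 and a range from -2.16 to 1.46. RPL10P3 stood at 2.45 and 1.71 CPM in the IP and 10.5 and 8.13 CPM in the Input (-2.16 ± 0.35, edgeR adjusted p = 0.0121). RPS28P7 stood at 8.55 and 14.6 CPM in the IP and 55.3 and 39.9 CPM in the Input (-2.05 ± 0.33, edgeR adjusted p = 0.0121). RPS2P46, at chr17:19445970-19446852, is a copy of the small-subunit protein RPS2 and stood at 11.6 and 9.61 CPM in the IP and 55.4 and 30.1 CPM in the Input (-2.01 ± 0.34, edgeR adjusted p = 0.0130). In all 3 both IP libraries lay below both Inputs. Their parents were depleted as well, by edgeR log2 fold changes of -1.56 ± 0.24 for RPL10, -2.14 ± 0.26 for RPS28 and -1.45 ± 0.29 for RPS2.

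In the other direction, RPL4P5, a copy of the large-subunit protein RPL4, stood at 15.6 and 9.22 CPM in the IP and 4.93 and 4.02 CPM in the Input (1.46 ± 0.34, edgeR adjusted p = 0.0263), and RPL4 had 1.31 ± 0.36. The call of RPL4P5 was lost without IP replicate 1 (1.08, edgeR adjusted p = 0.145) and with library size alone (0.85). RPL14P1 (1.36 ± 0.48, edgeR adjusted p = 0.0817) and RPL3P4 (0.71 ± 0.42, edgeR adjusted p = 0.261) were not called, while their parents RPL14 (1.51) and RPL3 (1.10) were enriched. RPL26P30 (0.36) and RPS3AP6 (-0.21) were near 0 with their parents RPL26 (-0.16) and RPS3A (-0.22). Each of these copies thus lay on the side of its parent or had a log2 fold change under 0.5 in size.

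The other 3 depleted members are named by identifier only. ENSG00000213058, in an intron of RASAL2, stood at 3.70 and 2.90 CPM in the IP and 11.7 and 9.41 CPM in the Input (-1.67 ± 0.30, edgeR adjusted p = 0.0146). ENSG00000224114, in an intron of MAPKAPK2, stood at 1.92 and 1.31 CPM in the IP and 7.50 and 4.96 CPM in the Input (-1.94 ± 0.42, edgeR adjusted p = 0.0211). The sequences of both matched RPS14, a small-subunit ribosomal protein, at 93.5% and 91.2% identity, and RPS14 was itself depleted (137 and 127 CPM in the IP, 415 and 312 CPM in the Input, log2 fold change -1.46). ENSG00000254198 stood at 2.11 and 0.739 CPM in the IP and 4.75 and 6.85 CPM in the Input (-2.00 ± 0.55, edgeR adjusted p = 0.0419). An exon of POMK on the opposite strand covers it whole, its replicates differed (-1.01 and -2.57 on the log2 ratio scale), and its best match, FAM9C, was too low to test. The call of ENSG00000254198 was lost without IP replicate 2 (-1.39, edgeR adjusted p = 0.0895), and that of ENSG00000224114 without Input replicate 1 (-1.57, edgeR adjusted p = 0.0530).

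**Figure D2:**
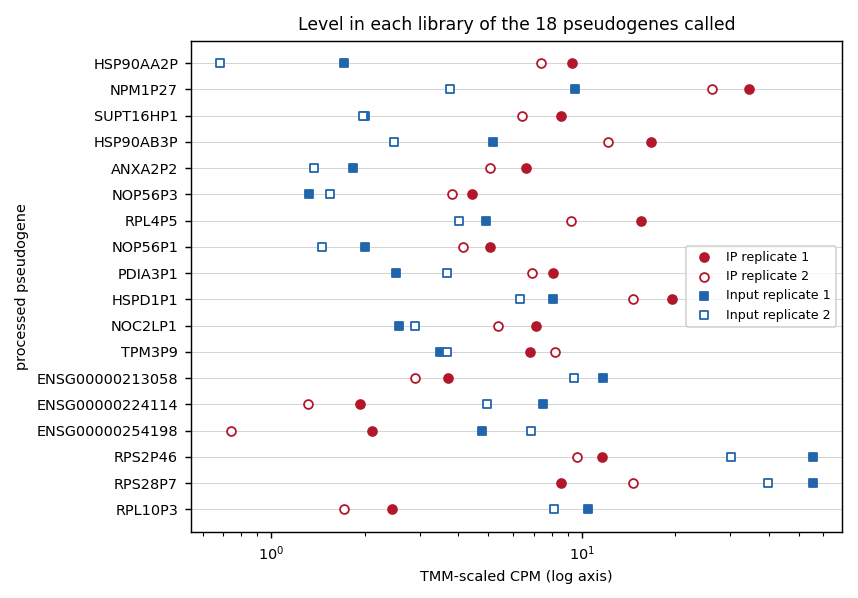
TMM-scaled CPM (log axis) in each of the 4 libraries for the 12 enriched and 6 depleted processed pseudogenes, with circles for IP, squares for Input, filled symbols for replicate 1 and open symbols for replicate 2. Within each line the IP and Input symbols do not overlap, and levels are not comparable between lines because CPM does not correct for length.

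Members with many reads were not all called. PTMAP5, the copy of the mRNA of prothymosin alpha, a small acidic nuclear protein, had the most reads of all (16331) and stood at 297 and 277 CPM in the IP and 198 and 156 CPM in the Input. Its log2 fold change was 0.70 ± 0.25 (edgeR adjusted p = 0.0862), beside 0.71 ± 0.30 for its parent PTMA, and the pair difference was -0.0076 ± 0.29. The second copy, PTMAP4, had 0.74 ± 0.28. ENSG00000259020, named by no symbol, matched PTMA at 92.8% identity and had 0.93 ± 0.29. All 3 copies of PTMA were higher in both IP libraries than in both Inputs, and none was called. LDHAP4, the copy of the mRNA of lactate dehydrogenase A, was on the other side, with 13.4 and 11.4 CPM in the IP and 21.5 and 20.4 CPM in the Input (-0.75 ± 0.23, edgeR adjusted p = 0.0542), beside -0.76 ± 0.26 for LDHA. An exon of ENSG00000291185 on the same strand covers LDHAP4 whole. The copy of the glycolytic enzyme mRNA GAPDH, GAPDHP1, had replicate log2 ratios of opposite sign (0.65 and -0.17) and a log2 fold change of 0.27 ± 0.35.

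MSL3P1, the copy of a subunit of the MSL histone acetyltransferase complex, stood at 30.7 and 19.5 CPM in the IP and 18.6 and 16 CPM in the Input (0.54 ± 0.28, edgeR adjusted p = 0.210). Exons of ENSG00000279809 on the same strand cover 81.8% of its exon bases. CENPBD2P (-0.47 ± 0.30) and SMPD4BP (0.15 ± 0.28) completed the 8 members with the most reads, and neither was called. The 3 copies of EEF1A1 were close to one another, with log2 fold changes of 0.88 ± 0.31 for EEF1A1P5, 0.81 ± 0.40 for EEF1A1P16 and 0.55 ± 0.29 for EEF1A1P11, and EEF1A1 itself had 0.71 ± 0.32 (7146 and 5508 CPM in the IP, 4058 and 3663 CPM in the Input). None of the 3 copies was called, though each was higher in both IP libraries than in both Inputs, and differences among the copies were not tested. Their identity to EEF1A1 was 99.7%, 91.9% and 97.3%, and 85.1%, 5.71% and 26.9% of their 50-base windows occur in it.

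The IP/Input ratio of each pseudogene was then set against that of its parent. Of the 38 members with a named parent 37 could be compared, since TUBB8 had 0 reads in every library. The difference between the log2 fold changes of pseudogene and parent had a median of -0.01 and a median size of 0.17, and 30 of the 37 pairs differed by less than 0.5. The pseudogene was the higher of the pair in 17 and the lower in 20. Over all 310 tested pairs of any pseudogene biotype, most of them under the minimum of reads or of another biotype, the median difference was -0.22 and the pseudogene was the lower in 193. In a test of the difference itself, an edgeR interaction fitted within libraries over these 310 pairs, no pair was called higher or lower (0 of 310, 0%). At an unadjusted p below 0.05 there were 30 of 310 pairs (9.68%) and 0 of the 37, and the DESeq2 interaction called 1 of 310 (0.323%) and 0 of the 37. The lowest adjusted p of the 37 was 0.538. Standard errors of the differences had a median of 0.38 (0.29 to 0.66), and the test does not show that the ratios were equal.

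**Figure D3:**
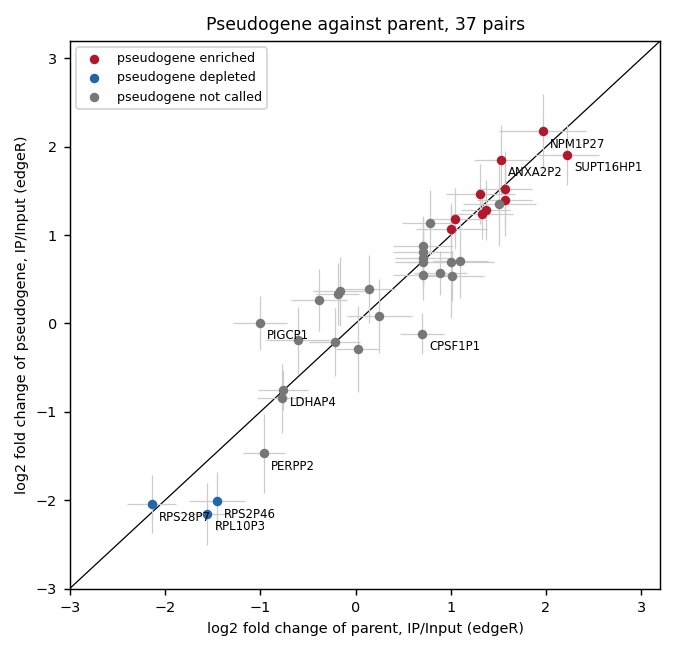
edgeR log2 fold change of IP over Input for the 37 pseudogenes (vertical axis) against that of the parent named by the symbol (horizontal axis), with bars for the standard error and a line where both are equal. The points lie along the line from RPS28P7, RPS2P46 and RPL10P3 at the lower left to NPM1P27 and SUPT16HP1 at the upper right, and PIGCP1 and CPSF1P1 lie farthest from it.

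Across the 37 pairs the log2 fold changes had a Pearson r of 0.94 and a Spearman rho of 0.95. The 2 genes of a pair come from the same libraries, and 3 parents (EEF1A1, NOP56 and PTMA) stand in more than 1 pair. With replicates kept apart, the pseudogene's log2 ratio in replicate 1 against the parent's in replicate 2, which share no library, gave r = 0.89, and the reverse gave 0.89. The members' own replicates 1 and 2 gave r = 0.91 over the 51. Of the 10 enriched members with a tested parent, 9 had an enriched parent and 1 (TPM3P9) a parent that was not called. All 3 depleted members with a tested parent had a depleted parent, and no pair had opposite calls. Over the 33 tested parents, 10 were enriched, 4 were depleted and 19 were not called, with a median log2 fold change of 0.71. For all tested genes the shares were 10.5% enriched and 8.3% depleted, with a median of 0.01. The parents were chosen through the members, so the minimum of reads bears on these counts too.

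The pairs that lay farthest apart were singled out after their values were seen. PIGCP1, the copy of an enzyme subunit of the first step of GPI anchor synthesis, stood at 5.43 and 4.89 CPM in the IP and 4.81 and 5.48 CPM in the Input, with a log2 fold change of 0.01 ± 0.30. Its parent PIGC was depleted at -1.002 ± 0.28, and the difference was 1.01 ± 0.46 (unadjusted p = 0.0877, edgeR adjusted p = 0.538). CPSF1P1, the copy of a subunit of the cleavage and polyadenylation factor, stood at 12.1 and 12.2 CPM in the IP and 12.5 and 13.9 CPM in the Input, and the difference to CPSF1 was -0.82 ± 0.39 (edgeR adjusted p = 0.547). Exons of another gene lie over both copies, on 34.9% of the bases of PIGCP1 (LINC00294, opposite strand) and on all of CPSF1P1 (SLC5A4-AS1, same strand). In PIGCP1 0.827% and in CPSF1P1 0.0543% of the 50-base windows occur in the parent.

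The pairs were also grouped by the sequence they share, with no test of the difference between groups. In the 18 pairs with at least 97% identity the median size of the difference was 0.17 and r was 0.98, in the 9 pairs from 93% to 97% they were 0.16 and 0.97, and in the 10 pairs under 93% they were 0.41 and 0.79. The last group includes RPL26P30 with RPL26, at a difference of 0.50 ± 0.38, while its best match by sequence, RPL26L1, gave 0.08 ± 0.38. In the group under 93%, no exon of another gene lay over NOP56P3, EEF1A1P16 and KRT8P36, whose differences were -0.045, 0.083 and -0.33. In its other pairs such an exon lay over the copy, so lower identity cannot be told apart from overlap with other genes. By windows the median size and r were 0.32 and 0.90 in the 19 pairs where under 20% of windows occur in the parent. They were 0.16 and 0.97 in the 18 others. Over the single pairs the Spearman rho between the size of the difference and identity was -0.16. RPS28P7 was at one end, with 100% of its windows in RPS28 transcripts, and 29.8% of them at a single place in the genome. Among members with most of their windows in no other gene, those called included ENSG00000254198 (100%), ENSG00000213058 (95.5%), RPL10P3 (92.4%), NOP56P3 (89.9%), ENSG00000224114 (87.5%), SUPT16HP1 (84%) and HSP90AA2P (79.6%). Those not called included TATDN2P2 (100%), TUBB8P1 (100%), PIGCP1 (99.2%), DAZAP2P1 (98.9%) and ZNF37BP (96.6%). Among the 23 tested pairs where at least 50% of the pseudogene's windows were in no other gene, the median difference was -0.04 and no pair was called by edgeR.

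**Figure D4:**
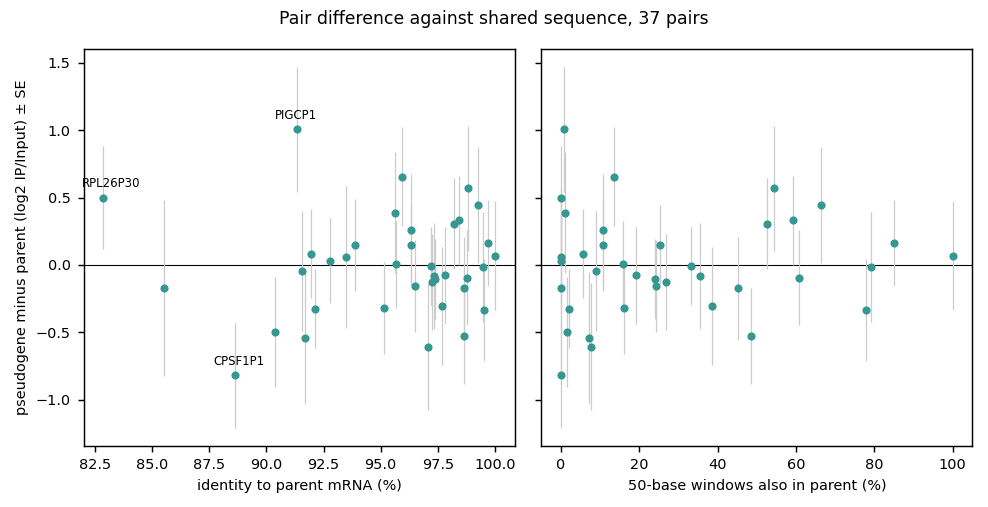
Difference between pseudogene and parent in log2 IP/Input, fitted to the counts of both genes together, with its standard error (vertical axis) for the 37 pairs. It is set against identity to the parent mRNA in percent (left) and against the percent of 50-base windows that also occur in the parent (right). The points spread most below 93% identity, where PIGCP1 at 1.01 and CPSF1P1 at -0.82 lie, both under exons of another gene.

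Per exonic length, most copies were scarce beside their parent. In the Input, CPM per kilobase of a pseudogene had a median of 7.30% of the parent's value, and 16 pairs were above 10%. The lowest was GAPDHP1, at 0.316% of GAPDH. The highest was RPS28P7, at 749% of RPS28 (227 against 30.2 CPM per kilobase), followed by MSL3P1 at 736% of MSL3, PIGCP1 at 337% of PIGC and TATDN2P2 at 131% of TATDN2. PTMAP5 reached 40.9% of PTMA, with 152 against 373 CPM per kilobase. Exonic lengths are those of GENCODE v44 and may differ from the gene models behind the counts. Each is the union of exons over all transcripts of a gene, which was 2119 bases for RPS28, with 207 coding bases, beside 210 for RPS28P7. For MSL3 it was 9780 bases, beside 2278 for MSL3P1. A long union lowers the parent's CPM per kilobase, so these percentages do not show that a copy outnumbers its parent. The log2 fold changes of the members had a Spearman rho of 0.25 with their own exonic length (n = 51) and of 0.40 with the coding length of the parent, and that of the parents with coding length was 0.51, values given as a description of genes from the same libraries.

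The surroundings of a copy were also compared with its ratio. No other gene lay over 21 members, and of these 7 were enriched and 0 were depleted (edgeR), with a median log2 fold change of 0.71. For all tested genes the shares were 10.5% enriched and 8.3% depleted, and differences between locations were not tested. Of the 16 members in an intron, 10 on the strand opposite to the host and 6 on the same strand, 3 were enriched and 4 depleted. Of the 14 with an exon of another gene over them, 2 were enriched and 2 depleted, and whether the counting used strand is not stated, so reads of such overlapping genes cannot be told apart. The host gene of the intron could be tested for 11 members, and the log2 fold changes of member and host had r = -0.06. In the 7 members with both a tested host and a tested parent, 6 lay nearer to the parent, with r = 0.95 to the parent and -0.02 to the host. SUPT16HP1 (1.91) in MGST1 (-0.74) and ENSG00000224114 (-1.94) in MAPKAPK2 (0.51) lay on the side opposite to their hosts. KRT8P36 (0.57), the copy of a keratin mRNA, was the member nearer to its host, DZIP1L (0.84), than to its parent, KRT8 (0.89). Parent and host were also close to one another for TMX2P1 (-0.85), with TMX2 at -0.77 and SLC25A51 at -0.71, and for PPP1R14BP3 (0.08), with PPP1R14B at 0.25 and ELF2 at 0.30.

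**Figure D5:**
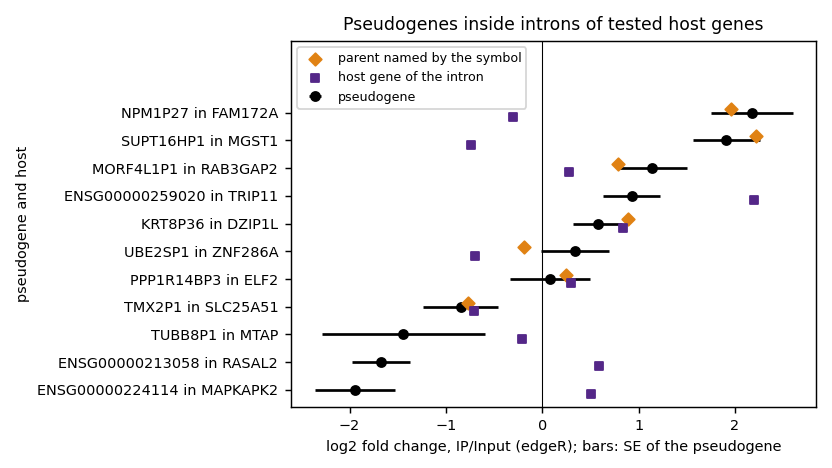
edgeR log2 fold change of IP over Input for the 11 pseudogenes inside an intron of a tested host gene (circles with standard error), their hosts (squares) and their parents where the symbol named one (diamonds). Diamonds lie near the circles for NPM1P27, SUPT16HP1 and TMX2P1, while the squares lie between -0.74 and 0.84 for all hosts but TRIP11 at 2.20.

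The members not yet described were not called. Log2 fold changes above 0.5 were measured for MORF4L1P1 (1.14), the copy of a chromodomain protein mRNA, and for ENSG00000256663 (0.79), RANBP1P1 (0.70), KRT8P36 (0.57), ENSG00000241352 (0.55) and PIPSL (0.52). Values between 0.5 and -0.5 belonged to CDC20P1 (0.39), UBE2SP1 (0.34), ZNF37BP (0.10), PPP1R14BP3 (0.08), DAZAP2P1 (-0.19), TATDN2P2 (-0.29) and ENSG00000267056 (-0.42). TUBB8P1 (-1.44 ± 0.85) and PERPP2 (-1.47 ± 0.44), the copy of a p53-induced membrane protein mRNA, were the lowest of those not called. In a fit with a replicate block MORF4L1P1 (1.18) and RPL14P1 (1.39) were called enriched, and PERPP2 (-1.48) and TUBB8P1 (-1.34) depleted. ENSG00000241352, whose best match was the ribosomal protein mRNA RPS6 at 92.6% identity, and RANBP1P1 had the widest spread of those near the minimum of reads, with standard errors of 0.65 and 0.64.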

How the data were processed

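The authors deposited raw counts of reads per gene, without normalization. Reads were trimmed with Trimmomatic, aligned to hg19 with STAR and counted with featureCounts. The annotation release, the use of strand and the handling of reads with several alignments are not given in the sources used here. GENCODE v44 on GRCh38 gave biotypes, coordinates and sequences, joined by gene identifier (11496 of 63677 genes had none), and no coordinate was moved between builds. Total counts were 9213877 to 27483148 per library. Reads carry no molecular identifiers.

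All 4 libraries were fitted with edgeR 4.0.16 in R 4.3.3 (TMM, filterByExpr, robust quasi-likelihood, group as the only term, Benjamini-Hochberg over 14645 genes; biological coefficient of variation 0.261). Standard errors follow from the fold change and its F statistic. The pair test had 8 counts per pair with terms for library, for gene kind and for gene kind in the IP, adjusted over 310 pairs. Scripts were tested on simulated counts. Replicate log2 ratios used a pseudocount of 0.5 CPM. Identity came from BLAST 2.17.0 against protein-coding transcripts. A window counts as shared only where all 50 bases match.

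Per the labels, an IP and an Input of the same number belong to one RIP replicate, and their deviations from the group means correlated (r = 0.645), so a replicate block was an alternative. Other alternatives were other scalings, filters and read minimums, DESeq2 1.42.0, leaving out each library, other choices of members by location or shared sequence, and parents chosen by sequence. Named were the 8 members with the most reads, up to 10 enriched and 10 depleted with the largest fold change and the same sign in both replicates, the members of parents with more than 1 copy, the 3 genes on each side of the minimum, called pairs (none) and all their parents. Others were named after their values were seen. Members and lists were chosen with earlier results of these data known.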

Additional observations from a re-analysis of the deposited data

How the results depend on the processing

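No pair of members was called under any alternative run, which says nothing of stability, since none was called at the outset and the standard errors had a median of 0.38. The median difference of -0.01 became -0.0078 with the replicate block and was -0.079 without IP replicate 2 and 0.078 without Input replicate 2, the range over the libraries left out. Scaling by library size alone gave 4 enriched and 10 depleted members (380 and 3257 of all 14645 genes). The medians were then -0.077 for members and 0.10 for parents. Upper-quartile scaling gave 7 enriched (1080 of all genes) and medians of 0.36 and 0.54. These scalings move the median of all genes by -0.60 and -0.17, and the members' median lay 0.52 and 0.53 above it. Scaling shifts all genes by nearly the same amount, so this distance could hardly change and does not test stability. The distance did change when single libraries were dropped. It was 0.23 after dropping IP replicate 1 and 0.85 after dropping IP replicate 2. For the Input libraries it was 0.87 (replicate 1 dropped) and 0.25 (replicate 2 dropped). The medians themselves, with a library left out, ran from 0.21 to 0.82 for members and from 0.41 to 0.87 for parents. With the replicate block 14 were enriched and 8 depleted (1960 and 1957 of all 14645 genes). It changed the call of 4 members (MORF4L1P1, RPL14P1, PERPP2 and TUBB8P1) and no other. A minimum of 100 reads gave 14 enriched and 14 depleted of 100 members with medians of 0.26 and 0.26. A minimum of 400 gave 4 enriched and 3 depleted of 24. Over all tested genes 10.5% were enriched and 8.3% depleted. The 37 members with no exon of another gene had a median of 0.70, and their parents 0.84. DESeq2 gave 9 enriched and 7 depleted (1610 and 1346 of all 14645 genes).

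For named genes and pairs, 356 values kept direction and side of the threshold, 28 lost the call, 2 gained one and 25 changed sign, and the cause was not tested. With library size alone, log2 fold changes turned to -0.042 for EEF1A1P11, -0.075 for ENSG00000241352, -0.082 for MSL3P1 and -0.45 for SMPD4BP, which was also -0.021 with upper-quartile scaling. With a library left out, log2 fold changes ran from -0.11 (without IP replicate 1) to 1.54 for RANBP1P1, from -0.37 (without IP replicate 1) to 1.36 for ENSG00000241352, which was -0.079 without Input replicate 2, and from -0.032 (without Input replicate 1) to 0.40 for SMPD4BP, which was -0.028 without IP replicate 2. Differences to the parent changed sign between -0.37 and 0.26 for NOP56P3, -0.31 and 0.16 for PDIA3P1, -0.024 and 0.19 for EEF1A1P16, -0.13 and 0.19 for PTMAP4, -0.081 and 0.066 for PTMAP5, -0.31 and 0.067 for EEF1A1P11, -0.031 and 0.041 for LDHAP4, and -0.13 and 0.27 for RPS28P7. Depth is a limit for the 32 of 51 members with fewer than 500 reads.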
